A study of Mus musculus with 4 samples.

Results

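Eukaryotic initiation factors (eIFs) load ribosomes onto mRNA, and their genes were followed here in mouse embryonic fibroblasts (MEF cells) exposed to genistein. The members are all gene entries of the count table whose symbol begins with Eif1 to Eif6, without the eIF2 kinases (Eif2ak symbols) and without pseudogenes. This gave 52 of 47937 genes, spread over 19 chromosomes. Total RNA was compared between 2 untreated libraries of wild-type MEF cells and 2 libraries of MEF cells that received 50 µM genistein, a plant isoflavone, for 24 h. The labels name no strain, sex or embryonic age, give no allele other than wild-type for the untreated cells, and enter the treatment in place of a genotype for the exposed cells. The sample titles call the unexposed cells control, and the study's sequencing methods call them untreated without naming a vehicle. For other assays the study describes unexposed cells as holding vehicle (DMSO). Nothing states that the libraries of a group came from separate cultures, so each p-value measures the spread between these libraries, which may be technical.

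In translation initiation, eIF2 brings the initiator tRNA to the small ribosomal subunit as a complex with GTP, and eIF2B reloads eIF2 with GTP after each round. eIF3 is a large scaffold that holds the small subunit ready for mRNA. The eIF4 factors recognise the mRNA cap (eIF4E), unwind the leader (eIF4A) and join both to the ribosome (eIF4G), while the 4E-BP proteins block eIF4E when mTORC1 activity is low. eIF1, eIF1A, eIF5 and eIF5B choose the start codon and join the large subunit.

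The libraries held 28591958 to 31464284 counts each. Correlations of log counts were 0.996 within the untreated pair, 0.995 within the genistein pair and 0.96 to 0.964 between the groups. The fibroblast label was checked with 12 marker genes, of which 11 passed the filter on low counts and Thy1 was at 0 in every library. Their summed normalised counts (counts scaled to a common effective library size) were 449886 to 461946 in untreated and 427383 to 436992 in genistein-exposed cells. Of 17 markers of other cell types 8 passed the filter, with sums of 1803 to 1916 in untreated and 1531 to 1587 in exposed cells, and Epcam, Adgre1, Myod1 and Sox10 were at 0 in every library. The sums moved in different directions: the epithelial sum was 452 to 462 in untreated and 131 to 137 in exposed cells, mostly from Krt8. The haematopoietic sum was 65.6 to 84.9 in untreated and 211 to 214 in exposed cells, nearly all from Cd68, with Ptprc at or near 0. The endothelial sum was 19 to 26.5 in untreated and 76 to 84 in exposed cells, mostly from Kdr, with Cdh5 at or near 0. Their part in the results was not tested. In bulk RNA, fewer cells of a kind and less RNA per cell cannot be told apart.

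Most eIF mRNAs were lower after genistein. Summed over the 52 genes, normalised counts were 323483 and 316864 in the untreated and 194858 and 196676 in the exposed libraries, so that the exposed mean was 61.1% of the untreated mean (195767 ± 1285 against 320174 ± 4681, SD, n = 2 each). Of all raw counts, eIF genes took 1.053 and 1.035% in untreated and 0.6604 and 0.6796% in exposed libraries. A quasi-likelihood model (edgeR) was fitted to all genes and repeats that passed the filter, and p-values were adjusted over all of them by Benjamini-Hochberg. It took in 49 of the 52 members and, at an adjusted p under 0.05, called 40 lower and 5 higher.

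Among all 16240 genes tested, 38.2% were called lower and 33.5% higher (71.7% in either direction), against which the members' counts are to be read. The median log2 fold change of the tested members was -0.72, with a range of -1.48 to 0.48. Over all tested genes the median was -0.03, with the middle 50% between -0.43 and 0.44. Highly counted genes leaned lower as a class: of 5652 genes with a mean normalised count over 1000, 56.1% were called lower and 29.8% higher, and their median was -0.18. Of the 41 members above that count, 34 were lower and 4 higher. The groups did not overlap for 48 of 49 members, Eif3h being the exception, whereas 85.3% of all tested genes had groups that did not overlap.

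**Figure D1:**
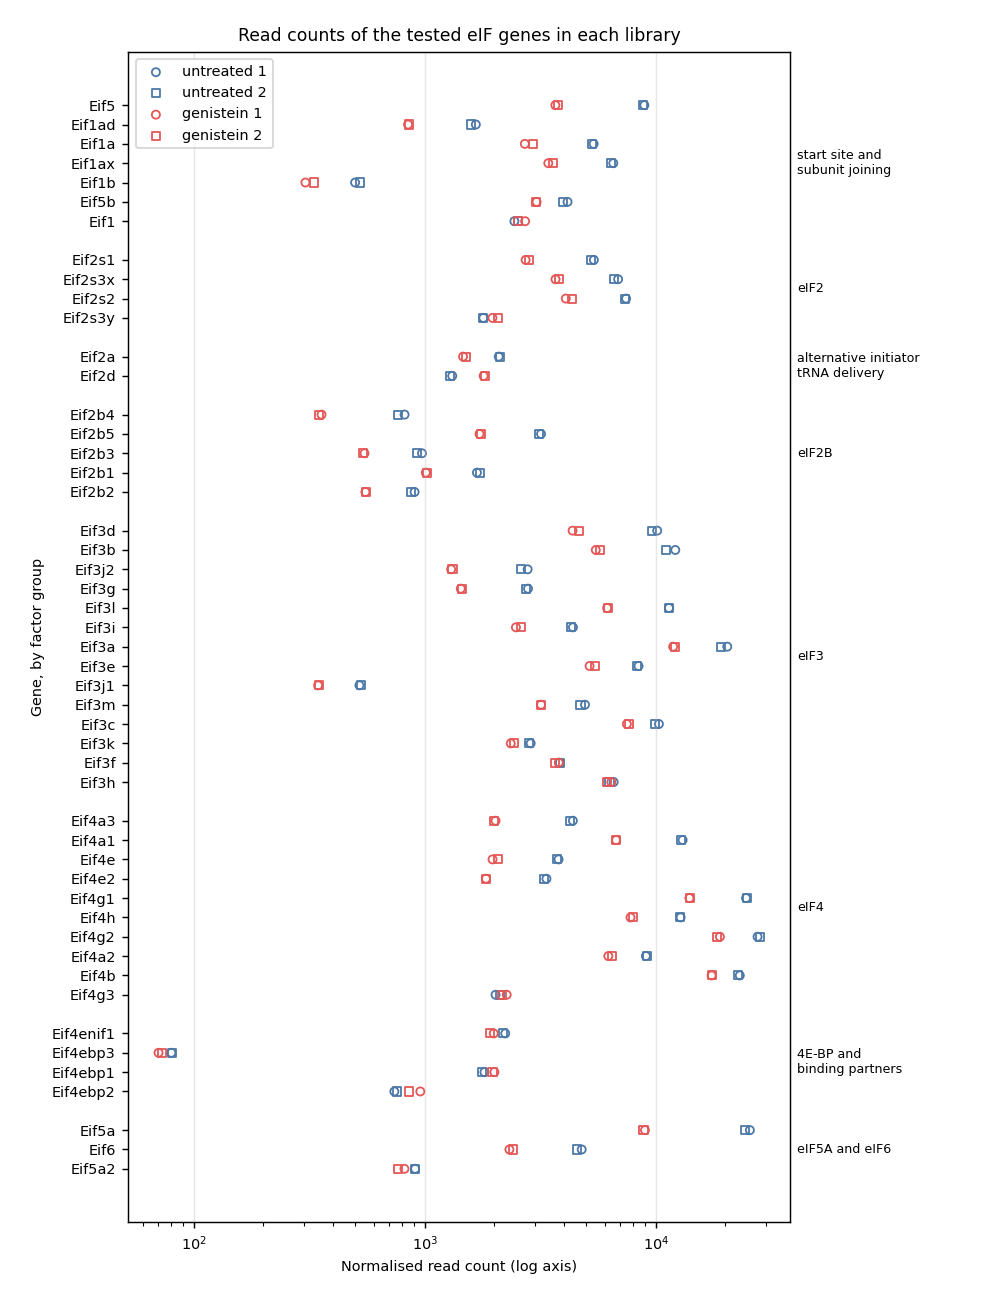
Normalised read counts on a log axis for the 49 tested eIF genes, 1 point per library (blue untreated, red genistein, circles replicate 1, squares replicate 2). Red points lie left of blue for most genes, and Eif3h is the gene whose groups overlap.

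The study's thresholds add a log2 fold change beyond 1 and a mean normalised count over 100 to the adjusted p. They were passed by 7 members, all lower (Eif5a, Eif5, Eif2b4, Eif3d, Eif4a3, Eif3b and Eif3j2), and by 0 members in the higher direction, where 5 had an adjusted p under 0.05. Of all tested genes, 4.16% passed these thresholds as lower and 3.92% as higher. The 7 members became 5 with library totals, with a stricter filter (100 counts in 2 libraries) or with glmTreat, a test against that fold change. They became 6 with scaling factors from genes alone or with genes fitted without repeats. With library totals Eif3b stood at -0.98 and Eif3j2 at -0.97, short of the cut-off. Leaving out untreated replicate 1 left 5 such members, and leaving out untreated or genistein replicate 2 gave 8.

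Eif5a showed the lowest fold change of all members. Its protein binds stalled ribosomes and carries the modified amino acid hypusine. Normalised counts of Eif5a (ENSMUSG00000078812, 11:69916714-69921958, minus strand, GRCm38) were 25558 and 24273 in untreated and 8979 and 8850 in exposed cells. Both exposed libraries were far below both untreated ones, with a log2 fold change of -1.48 ± 0.05 (SE) and an adjusted p of 1.8e-13. Counted without pseudogene copies, it also had the highest level of all members in untreated cells, at 350 RPKM (counts per kilobase of exon, scaled to library size). The median member stood at 39.6 RPKM. Eif4a-ps4, a near-identical copy of Eif4a1, stood at 760 RPKM. The level of Eif4a1 itself (100 RPKM) may thus be understated, and the first place of Eif5a is uncertain. The Eif5a paralog Eif5a2 had counts of 908 and 904, and 816 and 765 after genistein. This was a smaller fall of 0.20 ± 0.06 on the log2 scale (adjusted p = 0.0062). That call was lost when libraries were scaled by their totals alone (adjusted p = 0.062). Eif6 keeps large subunits apart from small ones, and its counts were 4777 and 4569 in untreated and 2324 and 2418 in exposed cells, a log2 fold change of -0.98 ± 0.04 (adjusted p = 1.2e-12). The 3 genes of the eIF5A and eIF6 group were all called lower, and their summed count stood at 39.6% of untreated.

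Factors of start site choice and subunit joining fell in 6 of 7 cases, with a median log2 fold change of -0.88. Eif5 encodes the protein that triggers GTP hydrolysis by eIF2 once the start codon is found. Its counts (ENSMUSG00000021282, 12:111538016-111546752, plus strand) were 8924 and 8774 in untreated and 3674 and 3757 in exposed libraries. No overlap was left between the groups, with a log2 fold change of -1.25 ± 0.03 (adjusted p = 1.4e-14). The genes of eIF1A, Eif1a and Eif1ax, changed by -0.92 and -0.88, Eif1ad, an eIF1A-like domain protein, by -0.94, and Eif5b, the joining GTPase, by -0.41 ± 0.04 (adjusted p = 2.6e-08).

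Eif1, which guards the accuracy of start codon choice, was the member of this group that did not pass the test. Its counts were 2442 and 2525 in untreated and 2718 and 2527 in exposed cells, a log2 fold change of 0.08 ± 0.04 (adjusted p = 0.097). The lower exposed library lay next to the higher untreated one. With other scalings Eif1 was called higher, at an adjusted p of 0.0047 with library totals and 0.015 with scaling factors from genes alone. Its paralog Eif1b had counts of 499 and 523, and 304 and 331 after genistein, and fell by 0.69 ± 0.08 on the log2 scale (adjusted p = 6e-07).

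Among the eIF2 subunits, the 3 genes for alpha, beta and the X-linked gamma chain fell, while the Y-linked gamma gene rose slightly. Counts of Eif2s1, the alpha chain that stress kinases phosphorylate, were 5394 and 5234 in untreated and 2731 and 2836 in exposed cells. Both exposed libraries were far lower, with a log2 fold change of -0.93 ± 0.04 (adjusted p = 9.9e-13). Eif2s2, the beta chain, changed by -0.82 ± 0.03 (adjusted p = 3.4e-12). For the gamma chain, Eif2s3x had counts of 6871 and 6618, and 3680 and 3801 after genistein (log2 fold change -0.85 ± 0.03, adjusted p = 1.6e-12). Eif2s3y had 1793 and 1794, and 1962 and 2071 after genistein (log2 fold change 0.17 ± 0.04, adjusted p = 0.0019). The X-linked copy thus went down and the Y-linked copy up in the same cells. Eif2s3x has a processed pseudogene, Gm2223, 100% identical over 1350 bases, whose counts equalled 48.9% of those of Eif2s3x. For Eif2s2 the pseudogene Gm9892, 99.496% identical over 992 bases, held 37%. When pseudogene counts were added to their parent genes, Eif2s3x and Eif2s2 each changed by -0.84. Summed counts of the eIF2 genes were 21497 and 21029 in untreated and 12450 and 13047 in exposed libraries, or 60.0% of untreated.

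The eIF2B genes moved as a block, with 5 of 5 called lower. Their median was -0.80 and their summed count was 56.2% of untreated (7559 and 7423 against 4193 and 4229). Eif2b4, the delta subunit of the regulatory part, had counts of 817 and 768 in untreated and 357 and 349 in exposed cells (ENSMUSG00000029145, 5:31187558-31193430, minus strand). It had the lowest fold change of the complex, -1.17 ± 0.07 (adjusted p = 1.5e-10), and its exons overlap those of Snx17 on the other strand. Eif2b2, the beta subunit, had the highest, at -0.68 ± 0.06 (adjusted p = 2.7e-08), with counts of 903 and 869, and 553 and 554 after genistein. Eif2b5, the epsilon subunit that carries the catalytic site, changed by -0.86 ± 0.04 (adjusted p = 6.4e-12), from counts of 3186 and 3119 to 1725 and 1758. The remaining regulatory subunit, alpha (Eif2b1), changed by -0.75 and the catalytic partner gamma (Eif2b3) by -0.80.

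Of the 2 genes for other carriers of initiator tRNA, each moved its own way. Eif2a (not a subunit of eIF2 despite its name) had counts of 2089 and 2112 in untreated and 1464 and 1512 in exposed cells, a log2 fold change of -0.50 ± 0.04 (adjusted p = 1.7e-08). Eif2d, a factor of tRNA delivery and ribosome recycling, had counts of 1314 and 1287 in untreated and 1797 and 1823 in exposed cells. It was the member with the largest rise, 0.48 ± 0.04 on the log2 scale (adjusted p = 5.8e-08), and its exons overlap Rassf5 on the other strand.

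eIF3 subunits differed widely among themselves. Of 14 genes 12 were called lower and 0 higher (2 did not pass the test), with a median of -0.69 and a range of -1.13 to -0.03. The cap-binding subunit gene Eif3d had counts of 10144 and 9633 in untreated and 4362 and 4669 in exposed libraries (log2 fold change -1.13 ± 0.04, adjusted p = 1.1e-12). Eif3b, another subunit gene, had counts of 12148 and 11090, and 5498 and 5711 after genistein (log2 fold change -1.05 ± 0.05, adjusted p = 9.7e-12). For both genes each exposed library lay far below each untreated library.

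At the other end stood Eif3h and Eif3f, a pair of neighbouring subunits with MPN folds. Eif3h counts were 6572 and 6303 in untreated and 6419 and 6165 in exposed cells, so the groups overlapped (log2 fold change -0.03 ± 0.04, adjusted p = 0.41). Eif3f counts were 3829 and 3856, and 3802 and 3669 after genistein (log2 fold change -0.04 ± 0.03, adjusted p = 0.30). The sign of both turned with the scaling, to 0.04 for Eif3h and 0.03 for Eif3f with library totals. In between lay Eif3k, a peripheral subunit, at -0.25 ± 0.04 (adjusted p = 1.5e-05), Eif3c at -0.42 ± 0.04 (adjusted p = 1.6e-07) and Eif3a, the largest subunit, at -0.72 ± 0.05 (adjusted p = 1.1e-09). Counts of Eif3a were 20395 and 19229 in untreated and 11896 and 12130 in exposed cells. Of the other subunit genes, Eif3g and Eif3i changed by -0.94 and -0.77, and Eif3l, Eif3e and Eif3m by -0.88, -0.65 and -0.60. These 5 genes were all called lower.

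The loosely bound j subunit has a pair of genes whose transcripts were 99.412% identical over 2379 bases, so reads may have been split between them. Eif3j1 counts were 521 and 531 in untreated and 345 and 347 in exposed cells (log2 fold change -0.60 ± 0.07, adjusted p = 1.1e-06). Eif3j2 had counts of 2787 and 2599, and 1300 and 1318 after genistein (log2 fold change -1.04 ± 0.04, adjusted p = 4e-12). Both were lower, and the division of reads between them is uncertain.

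**Figure D2:**
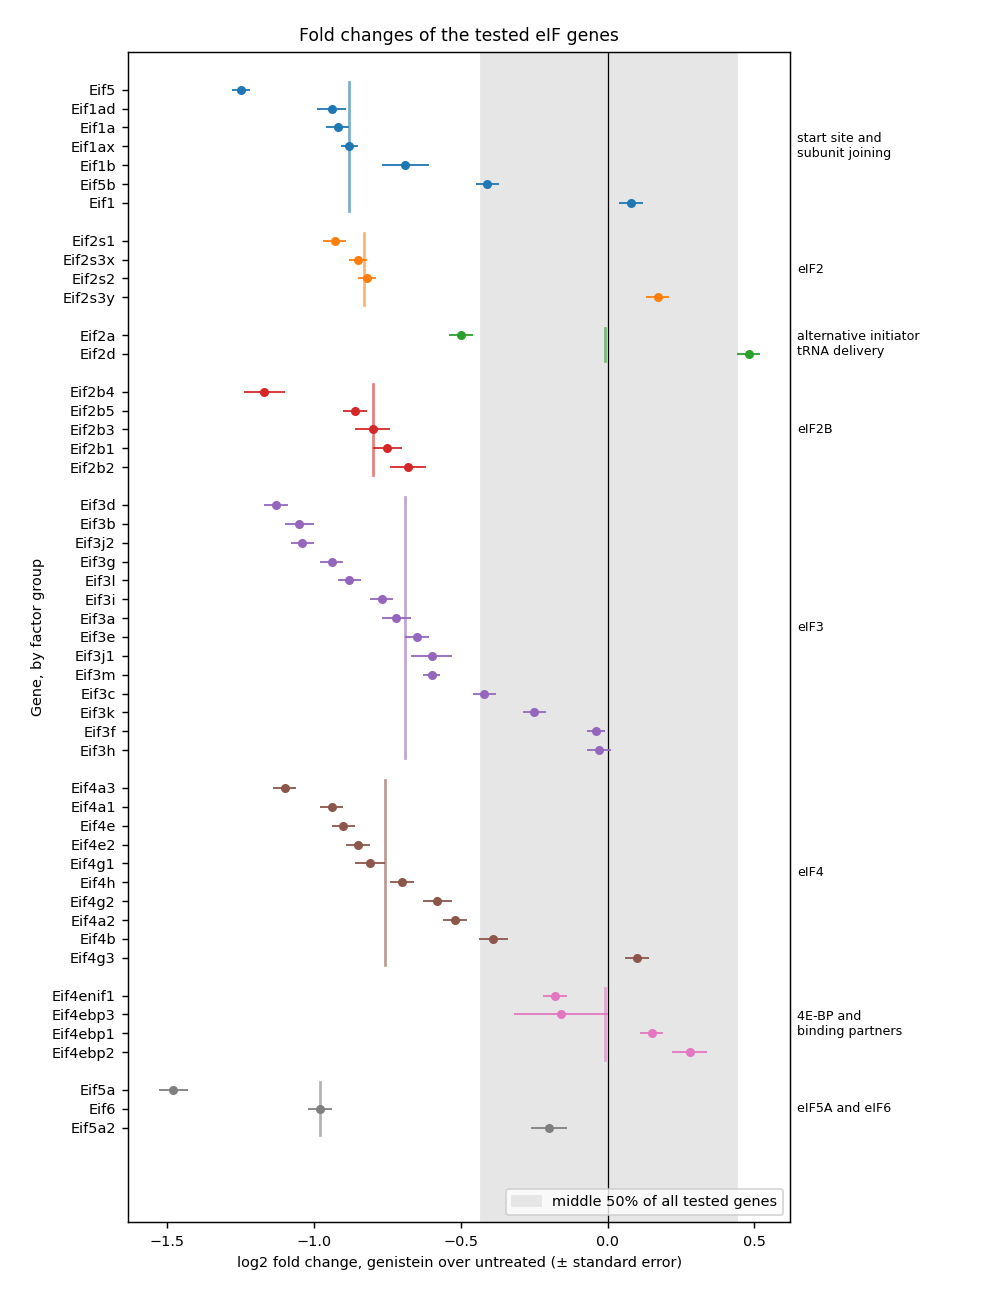
Log2 fold change of each tested eIF gene, genistein over untreated, with its standard error; short vertical lines are group medians and the grey band holds the middle 50% of all tested genes (-0.43 to 0.44). Most eIF2, eIF2B, eIF3 and eIF4 genes lie left of the band, and the group of 4E-BP and binding partners lies within it.

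Of the eIF4 genes tested, 9 of 10 were called lower and 1 higher, with a median of -0.76. Summed counts were 123785 and 124013 in untreated and 79202 and 79226 in exposed libraries, or 63.9% of untreated. Eif4e, the gene of the cap-binding protein, had counts of 3794 and 3732 in untreated and 1964 and 2082 in exposed cells (log2 fold change -0.90 ± 0.04, adjusted p = 4.7e-12). Its relative Eif4e2, a cap-binding repressor, changed by -0.85 (adjusted p = 5.9e-12). Eif4e1b was at 0 in every library. Eif4e3 had raw counts of 4 and 0 in untreated and 2 and 3 in exposed libraries, and neither gene was tested.

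Of the helicase genes, Eif4a3, whose protein sits in the exon junction complex rather than in cap binding, had the lowest fold change of the eIF4 group unless pseudogene copies were added (-1.08, against -1.11 for Eif4a1). Its counts (ENSMUSG00000025580, 11:119288363-119300089, minus strand) were 4376 and 4233 in untreated and 2024 and 2002 in exposed cells, a log2 fold change of -1.10 ± 0.04 (adjusted p = 1.9e-13). Eif4a1, the main helicase of cap-dependent initiation, had counts of 13072 and 12873, and 6733 and 6750 after genistein (log2 fold change -0.94 ± 0.04, adjusted p = 8.4e-12). Its paralog Eif4a2 had counts of 9062 and 9181, and 6229 and 6468 after genistein (log2 fold change -0.52 ± 0.04, adjusted p = 4.4e-09). Both helicases fell, with the exposed libraries below the untreated ones in each case.

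Reads of Eif4a1 are shared with a processed pseudogene, Eif4a-ps4, 99.918% identical over 1218 bases, which held raw counts of 28410 and 25480 in untreated and 12926 and 11916 in exposed libraries. When the counts of pseudogene copies were added to their parent genes, Eif4a1 changed by -1.11 (adjusted p = 3e-12), which brought it past the study's thresholds and made 8 such members. In all, 13 members had annotated pseudogene copies (at least 95% identity over at least 200 bases), of which 11 had one in the count table and could be added, and the 40 lower and 5 higher calls kept their number after the addition. Exons of 19 members overlap another gene. Of the 22 tested members with neither an overlap nor a copy of any kind, 17 were lower and 4 higher, and their median was -0.69. Only 1 of these 22, Eif3b, passed the study's thresholds. Among the other members past them, Eif5 exons overlap Snora28 on the same strand. Exons of Eif3d and Eif2b4 overlap Gm17638 and Snx17 on the other strand, and Eif5a, Eif4a3 and Eif3j2 have copies.

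The scaffold gene Eif4g1 had counts of 24585 and 24743 in untreated and 13986 and 14066 in exposed cells (log2 fold change -0.81 ± 0.05, adjusted p = 1.2e-10). Its paralog Eif4g3 had counts of 2024 and 2116, and 2262 and 2162 after genistein. It was called higher at 0.10 ± 0.04 (adjusted p = 0.047), a call lost in 6 of the alternatives, among them leaving out untreated replicate 1 (adjusted p = 0.3) or genistein replicate 1 (adjusted p = 0.26). Eif4b, a helper of the helicase, fell least among the lower eIF4 genes. Its counts were 23107 and 22767 in untreated and 17444 and 17480 in exposed cells (log2 fold change -0.39 ± 0.05, adjusted p = 8.8e-07). Eif4h, a related helper, changed by -0.70, with counts of 12811 and 12748, and 7774 and 7997 after genistein. Eif4g2, a scaffold that lacks the eIF4E binding site, had normalised counts of 27588 and 28355 in untreated and 18945 and 18383 in exposed cells (log2 fold change -0.58 ± 0.05, adjusted p = 9.2e-09).

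The inhibitors of eIF4E did not share the fall. Eif4ebp1 (ENSMUSG00000031490, 8:27260329-27276674, plus strand) had counts of 1812 and 1766 in untreated and 2001 and 1964 in exposed cells (log2 fold change 0.15 ± 0.04, adjusted p = 0.0038 with edgeR and 0.058 with DESeq2). Eif4ebp2 (ENSMUSG00000020091, 10:61428491-61452661, minus strand) had 738 and 756, and 956 and 853 after genistein (log2 fold change 0.28 ± 0.06, adjusted p = 0.00099). Both were modestly higher in each exposed library. Eif4ebp3 was sparse, with 79.9 and 80.5 in untreated and 70.3 and 72.9 in exposed cells (log2 fold change -0.16 ± 0.16, adjusted p = 0.37). Eif4enif1, the shuttling protein that carries eIF4E into the nucleus, had counts of 2229 and 2183, and 1988 and 1907 after genistein (log2 fold change -0.18 ± 0.04, adjusted p = 0.0008). Summed over the 4 genes, counts were 4859 and 4785 in untreated and 5015 and 4797 in exposed libraries, or 102% of untreated.

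**Figure D3:**
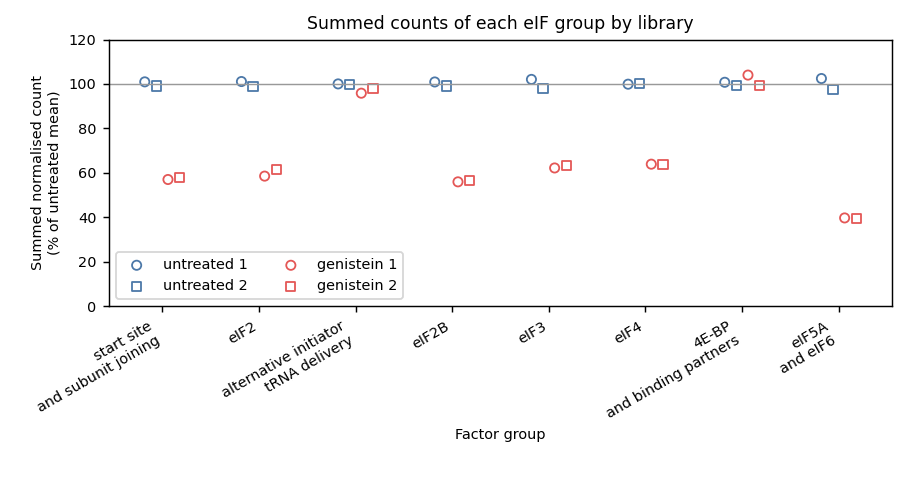
Summed normalised counts of each eIF group in each library, as a percentage of the untreated mean (grey line at 100). Exposed libraries of the eIF2, eIF2B, eIF3 and eIF4 groups average 60.0, 56.2, 62.8 and 63.9%, and the eIF5A and eIF6 group 39.6%. The group of 4E-BP and binding partners, which also holds Eif4enif1, averages 102%.

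Set side by side, eIF2, eIF2B, eIF3 and eIF4 had close medians of -0.83, -0.80, -0.69 and -0.76. Their ranges differed: eIF2B ran from -1.17 to -0.68, eIF3 from -1.13 to -0.03 and eIF4 from -1.10 to 0.10. The groups were not tested against each other. With 2 libraries against 2, an exact permutation test of a group's sum cannot give a two-sided p below 0.33. Across the 49 tested genes, the level per kilobase in untreated cells and the log2 fold change had a Spearman correlation of -0.37, and exon length and the fold change one of 0.12. These describe genes from the same libraries and are not independent replicates.

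Ratios within pairs of paralogs and partners also differed between the groups. On the RPKM scale, the ratio of Eif5a to Eif5a2 was 59.5 and 56.8 in untreated and 23.3 and 24.5 in exposed cells. Eif4g1 over Eif4g3 was 18.4 and 17.7, and 9.37 and 9.86 after genistein. Eif2s3x over Eif2s3y was 4.18 and 4.03, and 2.05 and 2 after genistein, counted without the reads of the pseudogene Gm2223. In these 3 pairs the abundant gene lost ground to the rarer one. Eif4a1 over Eif4a2 moved less, from 1.78 and 1.73 to 1.33 and 1.29, counted without the reads of Eif4a-ps4. The ratio of Eif1 to Eif1b rose from 2.62 and 2.59 to 4.8 and 4.09, and that of Eif3j1 to Eif3j2 from 0.0763 and 0.0834 to 0.108 and 0.108. The sum of Eif4ebp1 and Eif4ebp2 over Eif4e went from 1.51 and 1.5 to 3.29 and 3.01, so that mRNA of the inhibitors gained on that of their target. None of the 7 ratios overlapped between the groups, and no test was made of them. With 2 libraries per group, the counts of 85.3% of all tested genes did not overlap either.

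**Figure D4:**
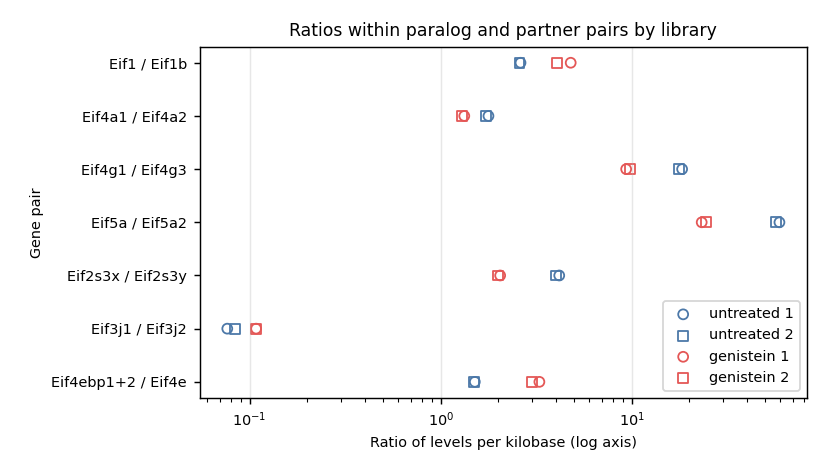
Ratios of levels per kilobase within paralog and partner pairs, on a log axis, 1 point per library (blue untreated, red genistein). Exposed libraries are lower for Eif4a1, Eif4g1, Eif5a and Eif2s3x over their partners, and higher for Eif1 over Eif1b, Eif3j1 over Eif3j2 and the 4E-BP sum over Eif4e.

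Promoter sequences were looked at because so many members moved together. RefSeq promoter windows (GRCm38.p6, 250 bases before to 50 after the start) were matched for 40 of 52 members. The E-box CACGTG, the site read by Myc and related factors, stood in the windows of 10 of the 40 members (25%) and of 2187 of 27025 genes (8.09%), searched on both strands. This background, used for every motif searched, was all genes with a window, whether or not they were expressed here. It was not matched to the members by expression, and the difference in shares was not tested. The following windows show the site in capitals for a cap-binding factor (Eif4e), a scaffold (Eif4g1), a helicase and its helper (Eif4a1 and Eif4h), the 2 eIF5A genes and an eIF3 subunit gene (Eif3f).
Eif4e (chr3:138527194-138527219, plus strand): acacgtccgtCACGTGggcaggagcc
Eif4g1 (chr16:20672663-20672688, plus strand): cagtgggtgtCACGTGatggggcgga
Eif4a1 (chr11:69672597-69672622, minus strand): atcgcctccgCACGTGtaaaggtgct
Eif4h (chr5:134639490-134639515, minus strand): gccgccgcacCACGTGggccgcagag
Eif5a (chr11:69921445-69921470, minus strand): ggggcggggtCACGTGtgtgcgtcat
Eif5a2 (chr3:28781150-28781175, plus strand): gggcgagcttCACGTGacggggcggg
Eif3f (chr7:108934337-108934362, plus strand): agatatgattCACGTGgtataaattt

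The last of these belongs to a member that did not pass the test, and Eif5a and Eif5a2 both hold the letters although they changed by -1.48 and -0.20. Of the 10 members with an E-box, 9 were called lower and 0 higher, with a median of -0.71. Of 29 tested members without it, 24 were lower and 4 higher, with a median of -0.75. The medians of members with and without the letters lay close together, and the difference was not tested. The core of the amino acid response element, TGCATCA, was in the windows of 0 of 40 members and of 3.63% of all genes. A run of pyrimidines from a C at the start, as in mRNAs whose translation follows mTORC1, was found for 3 of 40 members (7.5%) and 3.01% of all genes. Of these 3, Eif2c5 is a noncoding RNA that matches by its symbol alone and was not tested. The initiation factor genes among them, Eif3f and Eif2s3x, are shown with the run in capitals.
Eif3f (chr7:108934407-108934434, plus strand): taggctctCTCTCTTTCTCggcaagatg
Eif2s3x (chrX:94212632-94212659, minus strand): gcattttcCTTTTCTCTCCgagcaagat

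Other genes of translation and its control were read from a list of 54, all of which were tested. Of these, 35 were called lower and 14 higher, with a median log2 fold change of -0.22, and 3 passed the study's thresholds in each direction. Of all tested genes, 38.2% were called lower and 33.5% higher, and 4.16 and 3.92% passed the study's thresholds. The list's 3 genes past the thresholds as higher were Sesn2, Ddit4 and Pdcd4. Sesn2, a stress-induced sensor that inhibits mTORC1, had counts of 480 and 444 in untreated and 1973 and 1977 in exposed cells (log2 fold change 2.09 ± 0.06, adjusted p = 1.5e-14). Ddit4, another stress-induced mTORC1 inhibitor, had 466 and 464, and 1969 and 1890 after genistein (log2 fold change 2.05 ± 0.05, adjusted p = 1.5e-14). Pdcd4, which binds and blocks eIF4A, had 713 and 683, and 1749 and 1638 after genistein (log2 fold change 1.28 ± 0.05, adjusted p = 4.7e-12). In each of these genes both exposed libraries were over 2 times the untreated ones.

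Of 12 genes of mTORC1 and its inputs, 5 rose and 4 fell. Over all tested genes 33.5% were called higher and 38.2% lower, against which the counts of these short lists are to be read. Akt1s1 (PRAS40), also an inhibitor of mTORC1 and named after its value was seen, fell by 0.40 on the log2 scale (adjusted p = 3.6e-06). Mlst8, a core subunit of the complex, was the lowest at -0.60 ± 0.07 (adjusted p = 5.3e-07). Of the 4 kinases that phosphorylate eIF2, 2 were called higher and 2 lower, ranging from Eif2ak4 (GCN2) at -0.20 ± 0.04 (adjusted p = 0.00031) to Eif2ak3 (PERK) at 0.43 ± 0.06 (adjusted p = 2.8e-06). The lower call of Eif2ak1 (-0.16) was lost in 7 settings, among them library totals (adjusted p = 0.14), DESeq2 (adjusted p = 0.065) and leaving out untreated replicate 1 (adjusted p = 0.053) or genistein replicate 2 (adjusted p = 0.077). Ppp1r15a (GADD34), the stress-induced targeting subunit of the eIF2 phosphatase, had counts of 248 and 229 in untreated and 452 and 477 in exposed cells (log2 fold change 0.96 ± 0.08, adjusted p = 3e-08). The other 4 phosphatase genes fell, Ppp1ca the furthest at -0.58 ± 0.04 (adjusted p = 2.6e-09). Cyfip1, a protein that binds eIF4E, changed by -0.35 ± 0.03 (adjusted p = 4.2e-08).

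Genes of the later steps were mostly lower, where 38.2% of all tested genes were called lower. Abce1, which splits ribosomes after termination, had counts of 12629 and 12250 in untreated and 5512 and 5731 in exposed cells (log2 fold change -1.15 ± 0.04, adjusted p = 1e-12). Of the 6 termination and recycling genes 5 fell, and the sixth, Gspt2, was sparse and did not pass the test (log2 fold change -0.17 ± 0.25, adjusted p = 0.54). With DESeq2 4 were called lower, as the call of Pelo (-0.29 in the main fit) was lost (adjusted p = 0.071). Of the 10 genes listed under elongation, 9 were called lower. That list also holds Eef1e1, a scaffold of tRNA synthetases, Eef2k, the kinase that slows elongation, and the hypusine enzymes Dhps and Dohh. Eef1e1 was lowest at -1.01 ± 0.06 (adjusted p = 1.5e-10) and Eef2k highest at 0.03 ± 0.07 (adjusted p = 0.69). The count was 6 of 10 with library totals, scaling factors from genes alone, a stricter filter (100 counts in 2 libraries), genes without repeats or without genistein replicate 2, and 7 with a replicate block. Eef1a1 (-0.08) and Eef2 (-0.10), the main elongation factors, were among the calls lost, while Eef1e1, Dhps and Dohh were among those kept. Dhps and Dohh, the enzymes that place hypusine on eIF5A and named here after their values were seen, changed by -0.93 ± 0.06 (adjusted p = 4.8e-10) and -0.66 ± 0.04 (adjusted p = 6e-10).

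Of 7 genes of poly(A) binding and cap regulation, 4 fell and 3 rose, where 38.2% of all tested genes were called lower and 33.5% higher. Pabpc4, a poly(A) binding protein, was the lowest with counts of 5012 and 5087, and 2331 and 2229 after genistein (log2 fold change -1.15 ± 0.04, adjusted p = 1e-13). Paip2, which inhibits poly(A) binding protein, was the highest at 0.22 ± 0.05 (adjusted p = 0.00043). With library totals, scaling factors from genes alone, a stricter filter or genes without repeats, 3 of the 7 were called lower. The call of Paip1 (-0.13 in the main fit) was lost in these settings, with an adjusted p of 0.22 under library totals (edgeR). The helicase genes ranged from Ddx3x at -0.89 ± 0.05 (adjusted p = 5e-11) to Dhx9 at -0.40 ± 0.04 (adjusted p = 2.6e-07), and all 3 fell. The reinitiation genes, also 3 of 3 lower, ran from Denr at -0.82 ± 0.05 (adjusted p = 2.8e-10) to Mcts2 at -0.21 ± 0.08 (adjusted p = 0.022). The call of Mcts2 was lost in 7 settings, among them library totals (adjusted p = 0.12), DESeq2 (adjusted p = 0.13) and leaving out untreated replicate 2 (adjusted p = 0.17) or genistein replicate 1 (adjusted p = 0.18).

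**Figure D5:**
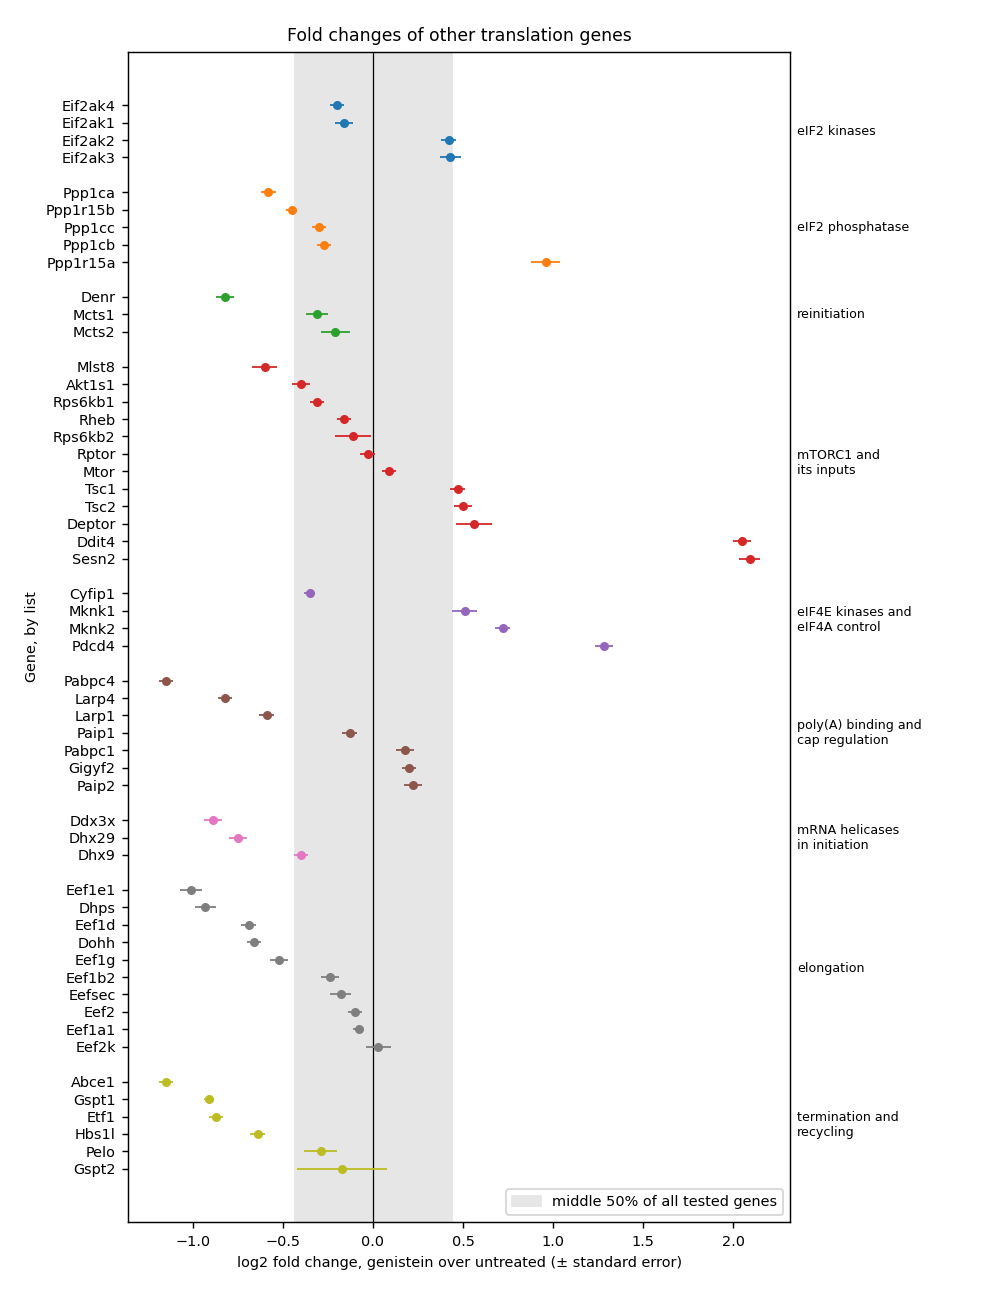
Log2 fold change, genistein over untreated, with its standard error for 54 other genes of translation and its control, grouped by list; the grey band holds the middle 50% of all tested genes. Sesn2 (2.09), Ddit4 (2.05) and Pdcd4 (1.28) stand highest, and Pabpc4 and Abce1 (-1.15 each) lowest.

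The third member that was not tested, Eif2c5, is annotated as a long noncoding RNA on chromosome X and matches by its symbol alone. Its raw counts were 0 and 0 in untreated and 0 and 2 in exposed libraries.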

How the data were processed

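Ribosomal RNA-depleted total RNA of 4 MEF libraries was sequenced with paired ends. The authors trimmed reads, aligned them to mm10 with STAR keeping multiple alignments, and deposited raw counts per gene and repeat from TEtranscripts with a Gencode annotation; the strand setting was not stated. The table holds 49383 entries (47937 genes, 1445 repeats and 1 unnamed entry with 0.00208 to 0.00314% of counts, left out). Symbols were matched for 47224 genes.

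Counts were tested with edgeR 4.0.16 (TMM factors, filterByExpr, quasi-likelihood test, Benjamini-Hochberg over 17358 kept entries), and the fit was tested on simulated data. RPKM used exon lengths of GENCODE on GRCm38, and copies were found with blastn 2.17.0. Alternatives were other scalings and filters, DESeq2 1.42.0, genes alone, a replicate block, glmTreat, other count thresholds and leaving out each library. Adding pseudogene copies, and members with neither copy nor overlap, were chosen after seeing the data. The members and lists were chosen with earlier results of these data known. Members named with values are those past the study's thresholds, the highest and lowest of each group, those moving against their group, those untested, the 4E-BP genes and the paralog pairs; others illustrate a role. In the list of other translation genes, those past the thresholds and each sub-list's extremes are named. Total counts of 28591958 to 31464284 per library limit precision mainly for genes with few counts.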

Additional observations from a re-analysis of the deposited data

Results flagged for a closer look

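Eif1-ps1, a pseudogene entry of Eif1 that was kept out of the eIF genes, was higher after genistein. Its normalised counts were 54.9 and 58.2 in untreated and 97.5 and 87.0 in exposed libraries, with a mean of 92.3 in the exposed cells. The log2 fold change was 0.71 ± 0.17 (edgeR, adjusted p = 0.0012). For its parent gene Eif1 the log2 fold change was 0.08 ± 0.04 (adjusted p = 0.097). Eif1-ps1 is 95.833% identical to Eif1 over 336 bases, so reads may have been shared between them. Other Eif1 pseudogene entries differed among themselves. Gm10157 had raw counts of 108 and 86 in untreated and 109 and 85 in exposed libraries. Gm4017, with few reads, had 9 and 8, and 18 and 15 after genistein.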

How the results depend on the processing

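The 40 lower calls among eIF genes numbered 39 with library totals and 40 in every other setting run, and the 5 higher calls numbered 3 with DESeq2, 4 to 6 elsewhere. Leaving out 1 library gave 40 lower, 4 to 6 higher and 5 to 8 past the study's thresholds; for the list of other translation genes it gave 30 to 34 lower and 14 to 15 higher. The 35 lower calls of that list numbered 28 with library totals, 29 with factors from genes alone, the stricter filter or genes without repeats, and 31 with DESeq2. Libraries with the same replicate number did not deviate together (correlation of same-numbered deviations -0.034, 2 pairs), and a replicate block gave 40 lower and 4 higher.

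Group medians moved with library totals, factors from genes alone, a stricter filter (100 counts in 2 libraries) or genes fitted without repeats. The median of all tested genes was -0.03 in the main fit and 0.04 with library totals. It was 0.01 with factors from genes alone or genes without repeats, and -0.03 with the stricter filter. The cause of the moves was not tested. With library totals the group medians were -0.76 (eIF2), -0.73 (eIF2B), -0.62 (eIF3), -0.69 (eIF4), -0.91 (eIF5A and eIF6) and -0.81 (start site). With the stricter filter they were -0.77, -0.74, -0.62, -0.69, -0.91 and -0.82, and with factors from genes alone or genes without repeats eIF3 was -0.64 and eIF4 -0.71. Without a filter eIF4 was -0.78. For the group of 4E-BP and binding partners, which also holds Eif4enif1, the median was -0.01 in the main fit. It was 0.06 with library totals, 0.04 with factors from genes alone and with genes alone, and -0.03 without a filter. With the stricter filter, which removed Eif4ebp3 and left 3 genes, it was 0.21. Signs turned for Eif3f (0.03, 0.00, 0.02 and 0.00 under library totals, factors from genes alone, the stricter filter and genes alone), Eif3h (0.04, 0.01, 0.03 and 0.01) and Rptor (0.04, 0.01, 0.03 and 0.01). Leaving out 1 library each also turned Rptor (-0.08 to 0.01), Rps6kb2 (-0.29 to 0.05), Eef2k (-0.04 to 0.10, -0.02 without another library) and Gspt2 (-0.53 to 0.10). Of 49 members 6 changed side of the threshold or sign in some setting, and 13 of 54 other genes did.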
